A study of Homo sapiens with 18 samples.

Results

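The CoREST corepressor complex was followed through 9 of its genes, RCOR1, RCOR2, RCOR3, KDM1A, HDAC1, HDAC2, HMG20B, PHF21A and ZMYM2, which were matched by symbol to the 57500 genes of the deposited count tables. All 9 were found, each as 1 gene, and all 9 passed the filter on low counts in every comparison. The cells were THP-1, a human monocytic leukaemia line, made into stable lines with a lentiviral short hairpin RNA that has no target (shNT) or that targets NR4A2 (shNR4A2) or NR4A3 (shNR4A3), inducible orphan nuclear receptors of myeloid cells. Each line was left unstimulated (control) or stimulated for 2 h with 2.5 μg/ml of LPS, a bacterial cell wall component, which gave 6 groups of 3 libraries and 18 libraries in total, with 16171161 to 23929138 counted reads each. The lines were maintained in medium with puromycin, and all cells stood for 2 h in buffered DMEM before the stimulus. Each hairpin is represented by 1 line, so the effect of a hairpin and the history of a line cannot be told apart. In bulk RNA of this kind, fewer cells expressing a gene and less RNA per cell cannot be told apart either.

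CoREST takes its name from its role as a cofactor of REST, the factor that silences neuronal genes. RCOR1, RCOR2 and RCOR3 encode alternative scaffolds that hold the lysine demethylase KDM1A (LSD1), which removes methyl groups from lysine 4 of histone H3, together with the deacetylases HDAC1 and HDAC2. HMG20B and PHF21A are accessory subunits that bind DNA and unmethylated histone H3, and ZMYM2 is a zinc finger protein that joins the complex. In myeloid cells the complex is known as the partner of GFI1 in blood cell development. NR4A2 is known to bring CoREST to inflammatory promoters occupied by NF-kappaB in microglia and astrocytes, which is why the levels of its subunits were examined in cells depleted of NR4A receptors.

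The labels were checked first on the targeted genes and on markers of the cell type. NR4A2 was 0.466, 0.422 and 0.592 RPKM in shNR4A2 control libraries against 1.07, 0.746 and 0.990 RPKM in shNT, where RPKM is reads per kilobase of exon and unit of TMM-scaled library size. The NR4A2 difference in shNR4A2 had a log2 fold change of -0.91 without LPS and -1.52 with LPS, with adjusted p of 0.0359 and 0.00265 (edgeR quasi-likelihood test), and the first was lost on leaving out any 1 of 4 libraries, namely control replicate 1 or 3 of shNT or 1 or 2 of shNR4A2 (adjusted p up to 0.124). NR4A3 in shNR4A3 was lower by a log2 fold change of -2.47 without LPS, on 5, 3 and 1 reads per library, and of -0.82 with LPS (adjusted p 0.00767 and 0.000556). Monocytic markers (CD33, SPI1, LYZ, CSF1R, CD68, MPO and CD14) were detected in every library, at unequal levels. Group means ran from 145 to 323 RPKM for SPI1, but from 0.681 to 1.28 RPKM for CD68 and from 1.03 to 1.44 RPKM for MPO. CD68 rested on 25 to 71 reads per library, a range that overlaps the 22 to 53 reads of COL1A1, a stromal marker. The 6 markers examined of T cells, B cells, erythroid, epithelial, liver and stromal cells (CD3E, MS4A1, HBB, EPCAM, ALB and COL1A1) summed to between 0.189 and 0.472 RPKM per library, with 0 to 4 of the 6 at 0. The highest single value was 0.243 RPKM, of the collagen gene COL1A1.

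RCOR1 and RCOR3, the pair of CoREST genes with the highest correlation across the libraries (given at the end), are shown by sequence before a RefSeq start (GRCh38.p14, plus strand), ended where the next annotated exon of the gene begins. For RCOR3 the stretch stops short of the RefSeq start and lies inside the gene, between an earlier annotated exon and the next. Capitals mark a CCAAT box in RCOR1, at chr14:102592399-102592648, and a match to the kappaB consensus in RCOR3, at chr1:211259116-211259278.
RCOR1: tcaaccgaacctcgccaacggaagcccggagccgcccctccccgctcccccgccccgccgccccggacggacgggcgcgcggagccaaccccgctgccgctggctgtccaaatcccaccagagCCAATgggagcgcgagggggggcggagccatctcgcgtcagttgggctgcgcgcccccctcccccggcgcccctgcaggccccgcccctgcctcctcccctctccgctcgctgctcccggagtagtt
RCOR3: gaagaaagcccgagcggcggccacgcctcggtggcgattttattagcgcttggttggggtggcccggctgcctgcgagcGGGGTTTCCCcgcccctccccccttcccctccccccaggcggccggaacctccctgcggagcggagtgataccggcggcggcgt
In windows of 300 bases (250 before and 50 after each start), 13 promoters of 8 of the genes were held by the RefSeq table. No promoter of RCOR2 was among them, so the search below does not cover that gene. The NR4A monomer element AAAGGTCA was searched on both strands and was in none of the 13, against 1.22% of all 35116 promoters. The CCAAT box was in 5 of the 13 promoters (of RCOR1, RCOR3, HDAC1, ZMYM2 and HMG20B), near its share of 34.6% of all promoters, and the kappaB consensus in 2 of the 13, both of RCOR3, against 5.91% of all promoters. The kappaB matches lie at -171 and 19 from 2 different RefSeq starts of RCOR3 and overlap no CCAAT box. Such matches describe the letters of these windows only.

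The genes spanned a wide range of levels, which were compared per length in RPKM. The deacetylase HDAC1, on chromosome 1 (GRCh38, 32292086 to 32333635, plus strand), was the highest, with 62.1 ± 2.14 RPKM (SD, n = 3) in shNT control cells. It was followed by HMG20B (chromosome 19, 3572777 to 3579088, plus strand) at 38.0 ± 3.14 RPKM, KDM1A (chromosome 1, 23019448 to 23083689, plus strand) at 23.7 ± 0.333 RPKM and RCOR1 (chromosome 14, 102592661 to 102730576, plus strand) at 21.6 ± 0.877 RPKM. HDAC2 (chromosome 6, 113933028 to 114011308, minus strand) stood at 15.3 ± 0.870 RPKM. The lower genes were ZMYM2 (chromosome 13, 19958670 to 20091829, plus strand) at 4.89 ± 0.738 RPKM, RCOR3 (chromosome 1, 211258377 to 211316385, plus strand) at 4.31 ± 0.0139 RPKM and PHF21A (chromosome 11, 45929323 to 46121178, minus strand) at 2.80 ± 0.0580 RPKM. RCOR2 (chromosome 11, 63911221 to 63916844, minus strand) was the lowest at 1.18 ± 0.210 RPKM, on 13 to 111 reads per library across the 18. The order of the means was the same in the other groups, except that RCOR1 stood above KDM1A in shNR4A2 control cells (21.2 and 20.7 RPKM). Neighbours in that order overlapped between libraries in 6 places. KDM1A and RCOR1 overlapped in shNR4A2 cells with and without LPS and in shNR4A3 control cells. In shNT cells with LPS, RCOR1 overlapped HDAC2 and ZMYM2 overlapped RCOR3, and in shNR4A3 cells with LPS RCOR3 overlapped PHF21A. Whether counting used strand is not stated, and 9.57% of the exon bases of HMG20B lie opposite MFSD12, so that some of its reads may belong to that gene. HDAC2 shares 0.446% of its exon bases with HDAC2-AS2.

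**Figure D1:**
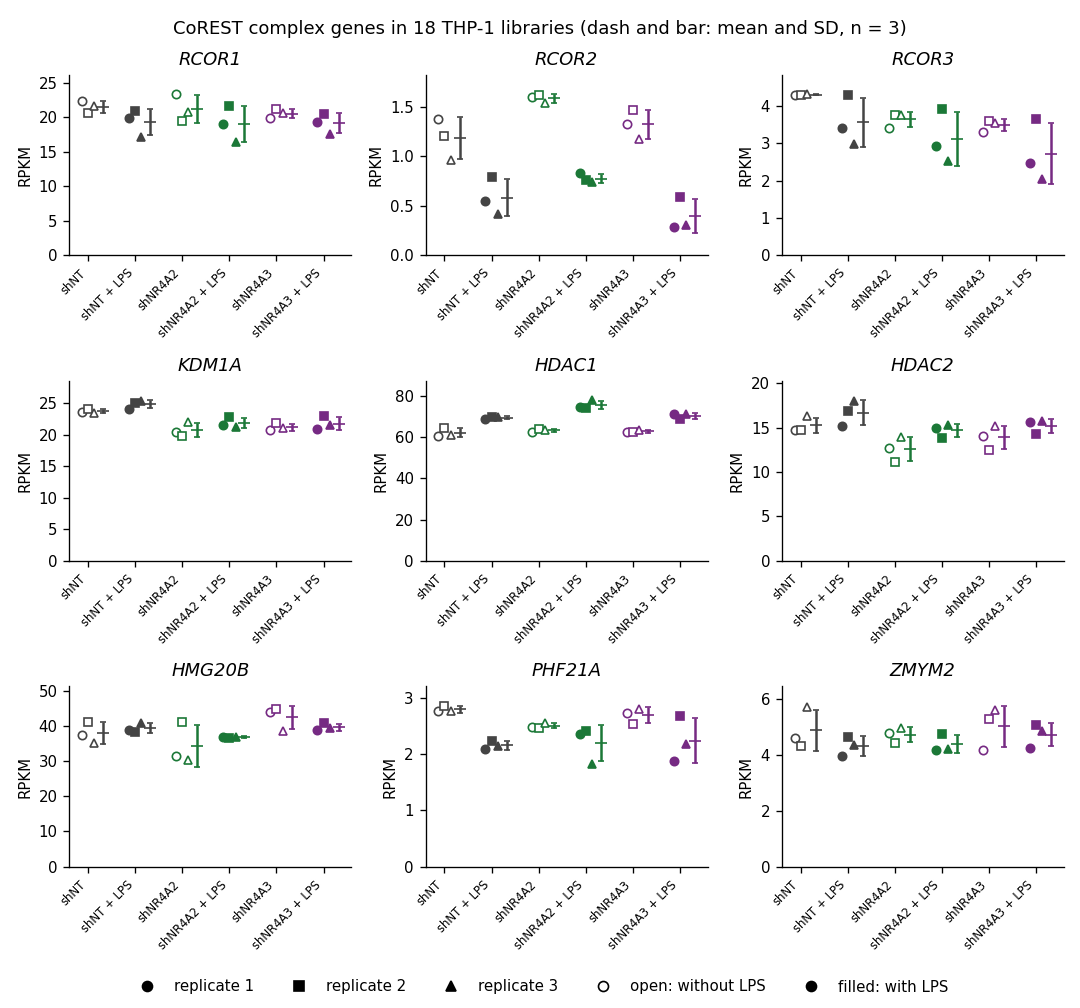
RPKM (y axis, linear from 0) of each CoREST gene in the 18 libraries by group (x axis), with open symbols for control and filled symbols for LPS, a shape for each replicate number, and dash and bar for the mean and SD of 3 libraries. RCOR2 lies lower with LPS in every line, without overlap, and replicate 2 holds the highest RCOR3 value of each LPS group (4.29, 3.93 and 3.65 RPKM).

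The ratio of the highest to the lowest of the 18 libraries was 5.76 for RCOR2 and 2.11 for RCOR3. For the other genes it ran from 1.28 for KDM1A and 1.29 for HDAC1 to 1.61 for HDAC2.

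By edgeR on the 6 libraries of each line, without a replicate block, LPS lowered RCOR2 in all 3 lines and PHF21A in shNT cells. No CoREST gene was called higher by that fit. Of the 9 genes, 2 were called in shNT cells, where 24.9% of all genes tested were called, 1 in shNR4A2 cells (19.3% of all genes) and 1 in shNR4A3 cells (28.1%). All of them were lower, a direction in which 13.3%, 10.1% and 15.0% of all genes were called. DESeq2 called 2, 1 and 1 of the 9 genes. HDAC1 was called higher in shNR4A2 cells with the replicate block and with all 18 libraries in 1 fit. RCOR3 was called lower in shNR4A3 cells with the block, as given below. The control and LPS libraries did not overlap for 5, 3 and 2 of the 9 genes, as for 40.0%, 36.2% and 43.7% of all genes in shNT, shNR4A2 and shNR4A3 cells. Across the 9 genes the median log2 fold change with LPS was -0.15, -0.11 and -0.09 in shNT, shNR4A2 and shNR4A3 cells, against -0.01, -0.02 and -0.01 for all genes. All 11 measured NF-kappaB target genes of a list of 12 (CCL4, CCL3 and CXCL2 among them) were higher with LPS in each line, with a median log2 fold change of 7.62, 7.82 and 7.71.

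RCOR2, the scaffold best known from neural and embryonic stem cells, had 1.38, 1.202 and 0.961 RPKM in shNT control libraries and 0.546, 0.789 and 0.411 RPKM with LPS. In shNR4A2 cells it had 1.60, 1.62 and 1.54 RPKM without LPS and 0.826, 0.754 and 0.741 RPKM with LPS. In shNR4A3 cells it had 1.33, 1.46 and 1.17 RPKM without LPS and 0.281, 0.591 and 0.303 RPKM with LPS. Every LPS library lay below every control library of its line. In shNT cells RCOR2 fell by 50.7%, a log2 fold change of -1.02 (SE 0.267, 95% interval -1.59 to -0.44, adjusted p 0.0124). In shNR4A2 cells the log2 fold change was -1.04 (SE 0.214, adjusted p 0.00434). In shNR4A3 cells it fell by 70.5%, with a log2 fold change of -1.76 (SE 0.302, 95% interval -2.42 to -1.10, adjusted p 0.00120). The call in shNT cells was lost without control replicate 1 (adjusted p 0.0534) or without LPS replicate 3 (adjusted p 0.0582), and its adjusted p ran from 0.00151 to 0.0582 over all alternatives. In the knockdown lines the call held under every alternative run, with an adjusted p up to 0.0170 and 0.00839.

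PHF21A, which reads unmethylated lysine 4 of histone H3, had 2.76, 2.86 and 2.77 RPKM in shNT control libraries and 2.09, 2.24 and 2.14 RPKM with LPS, without overlap. It fell by 22.7%, with a log2 fold change of -0.37 (SE 0.0950, 95% interval -0.58 to -0.17, adjusted p 0.0107). That call was lost without LPS replicate 1 (adjusted p 0.0514, with 0.00382 to 0.0514 over all alternatives). In shNR4A2 cells PHF21A had 2.49, 2.47 and 2.55 RPKM without LPS and 2.35, 2.40 and 1.82 RPKM with LPS, a log2 fold change of -0.19 that was not called (adjusted p 0.383). In shNR4A3 cells it had 2.74, 2.53 and 2.80 RPKM without LPS and 1.87, 2.67 and 2.17 RPKM with LPS. The groups overlapped there through LPS replicate 2, and the log2 fold change was -0.26 (adjusted p 0.169). Without that library it was -0.40 (adjusted p 0.0253, with 0.0253 to 0.487 over all alternatives).

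**Figure D2:**
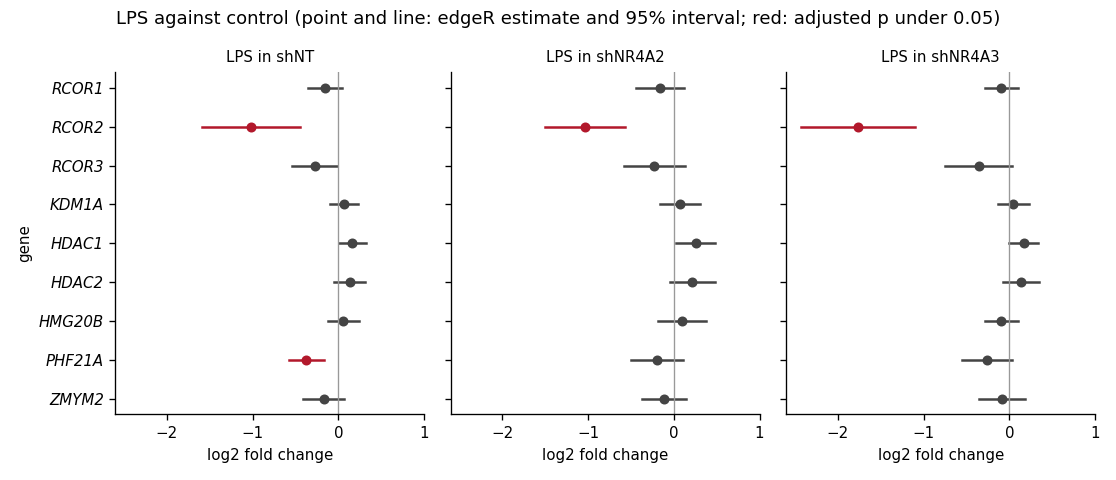
Log2 fold change of LPS against control (x axis) for each CoREST gene (y axis) in the 3 lines, as the edgeR estimate with its 95% interval, in red where the adjusted p was under 0.05. RCOR2 is red in all 3 lines, at -1.02, -1.04 and -1.76, and PHF21A in shNT alone, at -0.37.

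The other scaffolds were not called with LPS by the fit without a replicate block. RCOR3 had 4.29, 4.31 and 4.32 RPKM in shNT control libraries and 3.41, 4.29 and 2.98 RPKM with LPS. In shNR4A2 cells it had 3.42, 3.77 and 3.75 RPKM without and 2.92, 3.93 and 2.53 RPKM with LPS. In shNR4A3 cells it had 3.31, 3.602 and 3.55 RPKM without and 2.48, 3.65 and 2.05 RPKM with LPS. Replicates 1 and 3 with LPS lay below all controls of their line, whereas replicate 2 lay within or above the controls in both knockdown lines and just under them in shNT. The log2 fold changes were -0.27, -0.23 and -0.36, with adjusted p of 0.124, 0.376 and 0.159. Without LPS replicate 2 the value was -0.41 in shNT cells (adjusted p 0.0192, with 0.0192 to 0.424 over all alternatives) and -0.61 in shNR4A3 cells (adjusted p 0.00213, with 0.00213 to 0.489 over all alternatives). With the replicate number as a block, which was taken to pair the libraries of shNR4A3 cells, RCOR3 was called lower there (-0.39, adjusted p 0.0404), where 39.4% of all genes were called.

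Ratios of LPS to control between libraries with the same replicate number showed this split for RCOR3, and for RCOR1 and ZMYM2 in shNT and shNR4A2 cells but not in shNR4A3 cells. For RCOR3 they ran from -0.42 to -0.23 (log2) in replicate 1 and from -0.79 to -0.53 in replicate 3, and from -0.01 to 0.06 in replicate 2. RCOR1 gave -0.17, 0.02 and -0.33 in replicates 1, 2 and 3 of shNT cells, -0.29, 0.14 and -0.33 in shNR4A2 cells, and -0.04, -0.05 and -0.23 in shNR4A3 cells. PHF21A gave 0.08 in replicate 2 of shNR4A3 cells, against -0.55 and -0.36 in replicates 1 and 3. HMG20B was lowest in replicate 2 of shNT cells (0.05, -0.11 and 0.23) and of shNR4A2 cells (0.23, -0.17 and 0.28), but not of shNR4A3 cells (-0.18, -0.14 and 0.03). ZMYM2 gave -0.21, 0.11 and -0.39 in shNT cells, -0.20, 0.11 and -0.23 in shNR4A2 cells, and 0.03, -0.06 and -0.21 in shNR4A3 cells. RCOR2 was below 0 in all 9 ratios and HDAC1 above 0 in all 9. The NF-kappaB targets rose in replicate 2 too, with median log2 ratios of 7.30, 6.97 and 7.23, against 6.90 to 8.02 in the other replicates. What set replicate 2 apart in RCOR3 was not tested.

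**Figure D3:**
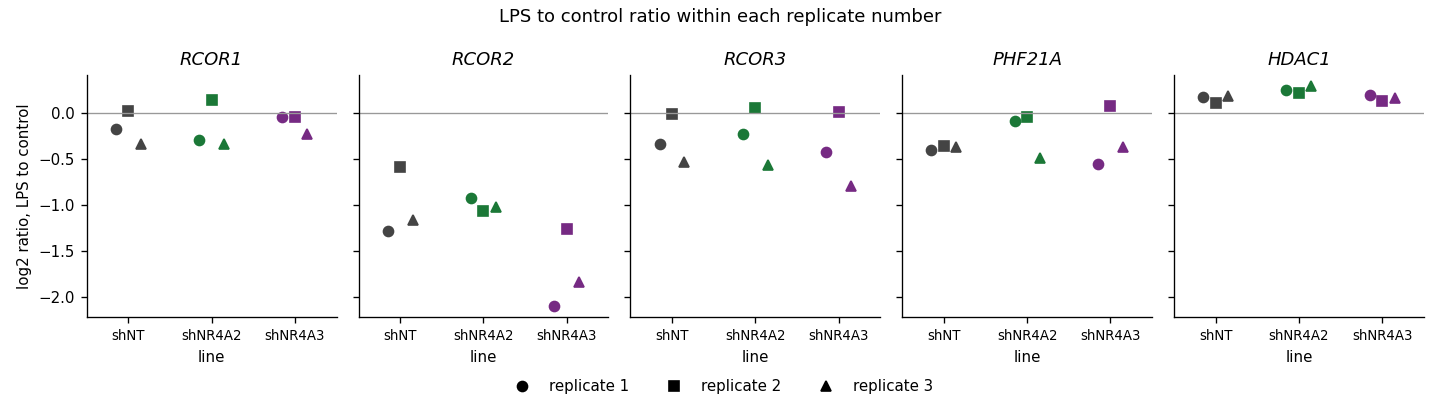
Log2 ratio of LPS to control between libraries of one line with the same replicate number (y axis) for 5 CoREST genes, by line (x axis) and with a shape for each replicate number. RCOR3 lies near 0 in replicate 2 of each line (-0.01 to 0.06) and below 0 in replicates 1 and 3, and RCOR2 lies below 0 throughout.

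RCOR1, the scaffold gene with the most RNA in these cells, had 20.6 to 22.4 RPKM in shNT control libraries and 17.2 to 20.9 with LPS. The ranges overlapped in all 3 lines. Its log2 fold changes were -0.15, -0.16 and -0.10, none of them called. Of the summed RPKM of the 3 scaffolds, RCOR1 made up 79.7% ± 0.731 (SD, n = 3) in shNT control cells and 82.5% ± 1.74 with LPS. It made up 80.1% ± 2.02 and 83.04% ± 0.760 in shNR4A2 cells, where the libraries overlapped, and 81.0% ± 0.343 and 86.2% ± 2.91 in shNR4A3 cells. RCOR2 made up 4.36% ± 0.703 without and 2.44% ± 0.536 with LPS in shNT cells, 6.01% ± 0.450 and 3.42% ± 0.478 in shNR4A2 cells, and 5.21% ± 0.511 and 1.73% ± 0.588 in shNR4A3 cells, and its control and LPS libraries did not overlap in any line. For 3 libraries against 3, the smallest 2-sided p of an exact permutation test is 0.1, and the shares are given without a test. RCOR3 held between 12.1% ± 2.37 (shNR4A3 with LPS) and 15.95% ± 0.599 (shNT control).

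**Figure D4:**
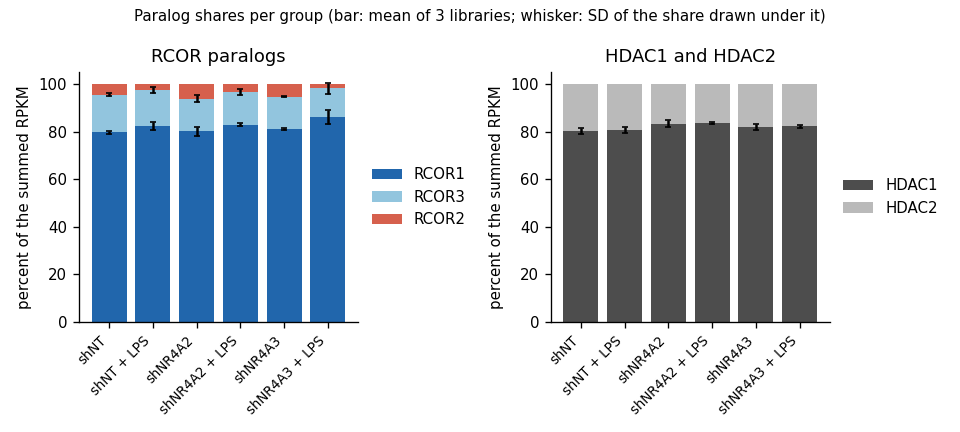
Share of each paralog in the summed RPKM of its family (y axis, percent from 0) by group (x axis), for the scaffolds and for HDAC1 and HDAC2. Bars are means of 3 libraries and whiskers the SD of the share drawn under them. RCOR2 takes 4.36% to 6.01% without LPS and 1.73% to 3.42% with LPS, and HDAC1 80.3% to 83.7% of the deacetylase pair.

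Among the catalytic subunits, HDAC1 had 60.6, 64.6 and 61.2 RPKM in shNT control libraries and 68.6, 69.9 and 69.8 RPKM with LPS. In shNR4A2 cells it had 62.5, 63.7 and 63.6 RPKM without and 74.5, 74.2 and 78.1 RPKM with LPS. In shNR4A3 cells it had 62.3, 62.6 and 63.5 RPKM without and 71.3, 68.7 and 71.0 RPKM with LPS. The groups did not overlap in any line, and the LPS libraries were the higher ones. The log2 fold changes of HDAC1 were 0.16, 0.25 and 0.17, with adjusted p of 0.132, 0.115 and 0.129, and in TPM, which are scaled to a fixed sum, the sign turned to -0.06, -0.01 and -0.06. With LPS, TPM moved the median of all genes by -0.22 to -0.27 relative to RPKM. With the replicate block, HDAC1 was called higher in shNR4A2 cells (0.25, adjusted p 0.0435, where 30.1% of all genes were called), and with all 18 libraries in 1 fit too (0.26, adjusted p 0.00507), over a range of 0.00507 to 0.463.

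HDAC2, the paralog of HDAC1, had log2 fold changes with LPS of 0.13, 0.22 and 0.13 and KDM1A of 0.07, 0.07 and 0.04, none called and all of them negative in TPM (-0.09, -0.05 and -0.09 for HDAC2 and -0.15, -0.19 and -0.18 for KDM1A). HDAC1 held 80.3% ± 1.19 of the summed RPKM of the deacetylases in shNT control cells and 80.6% ± 1.21 with LPS. HMG20B had log2 fold changes of 0.06, 0.10 and -0.09, and -0.16, -0.17 and -0.32 as log2 ratios of TPM. ZMYM2 had -0.17, -0.11 and -0.08. None of these passed the test.

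In the knockdown lines, no CoREST gene was called against shNT, with or without LPS, by the fit without a replicate block. In 3 of the 4 comparisons the replicate numbers were taken to pair the libraries, from correlations in these same counts. With the number as a block, 3 genes were called lower in shNR4A2 cells without LPS (RCOR3, KDM1A and HDAC2) and 2 with LPS (KDM1A and HDAC2). In shNR4A3 cells with LPS the block called 2 lower (RCOR3 and KDM1A). Of all genes, the block called 23.6%, 28.1% and 21.8% in these comparisons, in that order. All 4 comparisons use the shNT libraries, so the shNR4A2 and shNR4A3 values share their reference. Of all genes tested, 6.45% were called in shNR4A2 cells without LPS, 6.96% with LPS, 7.23% in shNR4A3 cells without LPS and 6.45% with LPS. At an unadjusted p under 0.05 there were 3 of the 9 genes (RCOR2, RCOR3 and HDAC2) in shNR4A2 cells without LPS, and 1 in each of the other comparisons (KDM1A, RCOR3 and KDM1A in that order), where 21.3%, 23.2%, 20.9% and 23.0% of all genes had such a p. DESeq2 called 0 of 9 in each. Groups without overlap were found for 5 of the 9 genes in shNR4A2 cells without LPS (26.1% of all genes), 3 with LPS (27.7%), 2 in shNR4A3 cells without LPS (25.7%) and 1 with LPS (27.4%).

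RCOR3 showed the lowest adjusted p of the CoREST genes against shNT. Its 4.29, 4.31 and 4.32 RPKM in shNT control libraries lay above all 3 shNR4A2 (3.42, 3.77 and 3.75 RPKM) and all 3 shNR4A3 control libraries (3.31, 3.602 and 3.55 RPKM). The log2 fold change was -0.23 in shNR4A2 cells (SE 0.102, adjusted p 0.215) and -0.31 in shNR4A3 cells (SE 0.0929, 95% interval -0.51 to -0.11, adjusted p 0.0669). With LPS the groups overlapped and the values were -0.18 (adjusted p 0.603) and -0.39 (SE 0.204, adjusted p 0.291). With the replicate block, RCOR3 was called in shNR4A2 cells without LPS (-0.24, adjusted p 0.0362, with 0.0362 to 0.504 over all alternatives) and in shNR4A3 cells with LPS (-0.41, adjusted p 0.00435, with 0.00435 to 0.618 over all alternatives). In the latter it was also called when no low-count filter was applied (-0.41, adjusted p 0.0234) and without shNR4A3 LPS replicate 2 (-0.66, adjusted p 0.0239).

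KDM1A, the demethylase, had 23.6, 24.1 and 23.5 RPKM in shNT control libraries, 20.4, 19.8 and 22.0 RPKM in shNR4A2 and 20.7, 21.8 and 21.1 RPKM in shNR4A3. With LPS it had 24.1, 25.0 and 25.4 RPKM in shNT, 21.6, 22.8 and 21.2 RPKM in shNR4A2 and 20.8, 22.9 and 21.5 RPKM in shNR4A3. Each knockdown group lay below its shNT group without overlap, by 10.8% to 12.3%. Groups below shNT without overlap were found for 13.4% and 13.9% of all genes in shNR4A2 and for 12.6% and 14.0% in shNR4A3 cells, without and with LPS. The log2 fold changes were -0.19, -0.18, -0.17 and -0.19 in the order of shNR4A2 without and with LPS and shNR4A3 without and with LPS, and none was called (adjusted p 0.259, 0.212, 0.257 and 0.170). With the replicate block KDM1A was called in shNR4A2 cells without LPS (-0.19, adjusted p 0.0447), in shNR4A2 cells with LPS (-0.18, adjusted p 0.0401) and in shNR4A3 cells with LPS (-0.19, adjusted p 0.0348). Over all alternatives the adjusted p of KDM1A reached 0.576, 0.560 and 0.373 in these comparisons.

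HDAC2 had 14.7, 14.8 and 16.3 RPKM in shNT control libraries against 12.7, 11.2 and 13.9 RPKM in shNR4A2, a log2 fold change of -0.27 (SE 0.105, adjusted p 0.161). With the replicate block it was called there (-0.27, adjusted p 0.00590, with 0.00590 to 0.422 over all alternatives). With LPS it had 15.1, 16.9 and 18.01 RPKM in shNT and 14.9, 13.8 and 15.3 RPKM in shNR4A2, overlapping, with a log2 fold change of -0.18 that the block also called (-0.18, adjusted p 0.0485, with 0.0485 to 0.603 over all alternatives). In shNR4A3 cells the log2 fold changes of HDAC2 were -0.13 without and -0.13 with LPS, and neither was called by any of the fits.

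RCOR2 was 0.43 higher (log2; SE 0.191, 95% interval 0.01 to 0.85) in shNR4A2 than in shNT control cells without overlap of the libraries, with an adjusted p of 0.224. With LPS the value was 0.41 and the groups overlapped. In shNR4A3 cells RCOR2 differed by 0.16 without LPS and by -0.58 with LPS (95% interval -1.42 to 0.26). Over the alternatives these values ran from 0.29 to 0.56 and from 0.21 to 0.69 in shNR4A2 cells, and from 0.03 to 0.28 and from -0.98 to -0.31 in shNR4A3 cells, without and with LPS, and none was called. The intervals of RCOR1 against shNT ran from -0.25 to 0.10 in shNR4A3 control cells and from -0.23 to 0.19 in shNR4A2 control cells, and those of HDAC1 from -0.15 to 0.18 and from -0.16 to 0.22. PHF21A, HMG20B and ZMYM2 had log2 fold changes between -0.15 and 0.16 against shNT, and none was called.

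**Figure D5:**
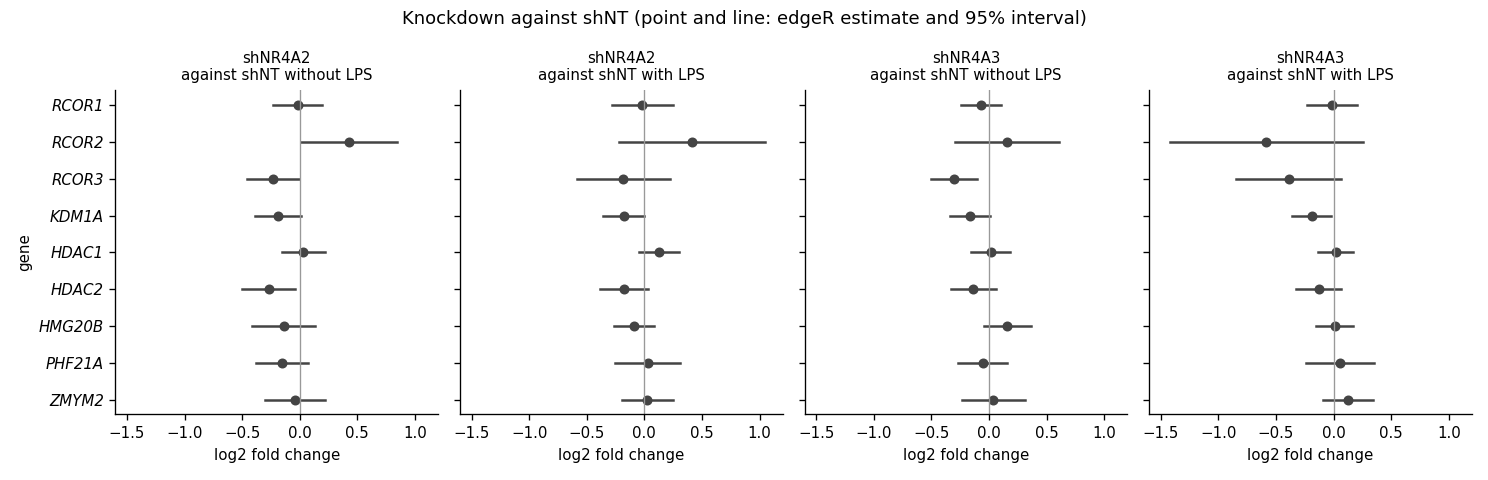
Log2 fold change of each knockdown line against shNT (x axis) for each CoREST gene (y axis), without and with LPS, as the edgeR estimate with its 95% interval. No adjusted p was under 0.05, KDM1A lies between -0.19 and -0.17 in all 4 panels, and RCOR2 has the widest intervals.

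The knockdown lines were also compared directly. Without LPS 3.08% of all genes and with LPS 2.33% were called, and 0 of the 9 CoREST genes, with 1 at an unadjusted p under 0.05 in each (HMG20B without LPS and RCOR2 with LPS), as had 14.5% and 17.8% of all genes. DESeq2 called 0 of the 9 in each. The groups did not overlap for 1 of the 9 genes without LPS (19.6% of all genes) and 3 with LPS (23.2%). RCOR2 with LPS had 0.826, 0.754 and 0.741 RPKM in shNR4A2 and 0.281, 0.591 and 0.303 RPKM in shNR4A3 libraries, which did not overlap. The log2 fold change was 1.00 (SE 0.324, 95% interval 0.26 to 1.73, adjusted p 0.155). It was called with the replicate block (1.01, adjusted p 0.0290, where 23.6% of all genes were called) and with all 18 libraries in 1 fit (1.00, adjusted p 0.0423), over a range of 0.0290 to 0.405. HMG20B without LPS had 31.6, 41.2 and 30.4 RPKM in shNR4A2 and 44.0, 44.7 and 38.7 RPKM in shNR4A3 libraries, overlapping through shNR4A2 replicate 2. Its log2 fold change was -0.30 (adjusted p 0.288), and it was called with the block (-0.31, adjusted p 0.0235, where 11.6% of all genes were called) and without shNR4A2 control replicate 2 (-0.45, adjusted p 0.0346), over a range of 0.0235 to 0.576.

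Whether a line changed the response to LPS was tested as an interaction. By edgeR with the low-count filter and no replicate block, 0 genes were called in either knockdown line. By that fit 365 genes (2.19%) in shNR4A2 and 824 (5.02%) in shNR4A3 cells had an unadjusted p under 0.05. DESeq2 called 2 and 10 genes, and edgeR without the filter or with the block called some, as given at the end. No CoREST gene was called by any of these fits, and none had an unadjusted p under 0.05 in the first. The largest difference was that of RCOR2, whose log2 response in shNR4A3 cells was lower than that in shNT cells by a log2 value of -0.75 (SE 0.416, 95% interval -1.63 to 0.14, unadjusted p of the edgeR test 0.0929, adjusted p 0.999). The steeper fall of RCOR2 in shNR4A3 cells is therefore not shown to differ from that in shNT cells.

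Other genes tied to the complex or to its subunits were examined from lists. The shares of all genes called in each comparison are given above, and no count of this or the following lists was tested against them. The first list held 6 genes (GSE1, ZMYM3, CTBP1, CTBP2, ZNF217 and KDM1B, the last as the paralog of KDM1A). Of these, LPS lowered 3 in shNT, 2 in shNR4A2 and 2 in shNR4A3 cells and raised none, with list medians of -0.33, -0.26 and -0.38. ZNF217, a zinc finger oncoprotein found with CoREST, went from 14.4 ± 0.834 to 6.65 ± 0.378 RPKM (SD, n = 3) in shNT cells, a log2 fold change of -1.12 (adjusted p 5.66e-07). It fell by 1.03 in shNR4A2 cells and by 1.04 in shNR4A3 cells on the log2 scale, with adjusted p of 5.78e-05 and 1.12e-05. ZMYM3, the paralog of ZMYM2, went from 8.79 ± 0.875 to 4.92 ± 1.28 RPKM in shNT cells (-0.84, adjusted p 0.000881). In the knockdown lines ZMYM3 was called at -0.83 and -0.76, but lost the call without any of 2 libraries in shNR4A2 (control replicate 2 or LPS replicate 1) and any of 4 in shNR4A3 cells (control replicate 2 or 3, LPS replicate 1 or 3), with an adjusted p up to 0.0668 and 0.104. Against shNT, 0 of the 6 were called in shNR4A2 cells, by edgeR, in either condition. In shNR4A3 cells ZNF217 was higher without LPS (0.34, adjusted p 0.0357) and with LPS (0.41, adjusted p 0.0225), and ZMYM3 was lower without LPS (-0.52, adjusted p 0.0307). The call of ZNF217 without LPS was lost on leaving out any 1 of the 6 libraries (adjusted p up to 0.140) and that with LPS without replicate 2 or 3 of shNT or 1 or 3 of shNR4A3 (adjusted p up to 0.0952). The call of ZMYM3 was lost without replicate 2 or 3 of shNT or 1 or 3 of shNR4A3 (adjusted p up to 0.123). GSE1, the third gene lowered by LPS in shNT cells (-0.56, adjusted p 0.0131), was lost without control replicate 2 (adjusted p 0.0583) and with all 18 libraries in 1 fit (adjusted p 0.171).

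Of 8 DNA-binding factors that recruit CoREST or KDM1A, 5 were measured above the filter, and in each line LPS raised 2 (PRDM1 and SNAI1) and lowered 2 (GFI1 and REST). GFI1, the myeloid repressor that binds KDM1A, went from 103 ± 9.67 to 20.5 ± 5.55 RPKM in shNT cells, from 77.6 ± 6.06 to 16.1 ± 9.01 RPKM in shNR4A2 cells and from 77.3 ± 6.74 to 12.8 ± 4.70 RPKM in shNR4A3 cells. The log2 fold changes were -2.32, -2.27 and -2.59 (adjusted p 4.94e-08, 0.000102 and 4.44e-06). REST fell by 1.00, 0.89 and 0.78 on the log2 scale, and PRDM1, a transcriptional repressor, rose by 1.45, 0.87 and 1.75. SNAI1 was higher by 1.03 and 1.22 in the knockdown lines and by 0.54 in shNT cells, where the call was lost without control replicate 2 or LPS replicate 1 (adjusted p up to 0.0951). With LPS, SNAI1 was higher in shNR4A2 than in shNT cells (0.62, adjusted p 0.0336), a call lost without replicate 2 or 3 of shNT or 1 or 3 of shNR4A2 (adjusted p up to 0.143). Without LPS, GFI1 was lower in each knockdown line than in shNT, with a log2 fold change of -0.40 in shNR4A2 (adjusted p 0.0415) and of -0.41 in shNR4A3 (adjusted p 0.0214). The first was lost on leaving out any 1 of 4 libraries (replicate 2 or 3 of shNT, 1 or 3 of shNR4A2) and the second any 1 of 3 (replicate 2 or 3 of shNT, 3 of shNR4A3), with an adjusted p up to 0.167 and 0.105. Neither was called with all 18 libraries in 1 fit (adjusted p 0.416 and 0.469). Of 14 neuronal REST targets, 4 to 7 passed the filter, LPS changed none, and L1CAM alone was called, higher in shNR4A2 control cells (1.07, adjusted p 0.0271, lost without replicate 2 or 3 of shNT or 1 of shNR4A2, with an adjusted p up to 0.117).

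RELA, GSK3B and NLK, which act with NR4A2 and CoREST on NF-kappaB targets, gave 1 call with LPS in shNT cells (RELA, 0.35, adjusted p 0.0150, lost without control replicate 3 or LPS replicate 1) and 1 in shNR4A3 cells (RELA, 0.32, adjusted p 0.0194, lost without control replicate 3 or LPS replicate 1 or 3). Adjusted p reached 0.0668 and 0.0906 without those libraries. None of the 3 was called against shNT by edgeR. Of the NF-kappaB targets, CCL2 (-1.56) and TNF (-1.02) were lower in shNR4A3 than in shNT control cells, the latter not without shNT replicate 2 (adjusted p 0.0547). With LPS, IL6 was higher in shNR4A2 (1.69) and shNR4A3 cells (1.83), calls that were lost without LPS replicate 2 or 3 of shNT, 1 of shNR4A2, or 1 or 3 of shNR4A3 (adjusted p up to 0.0907 and 0.116).

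Other corepressors that share HDAC1 and HDAC2 were set beside CoREST. Their counts of called genes were not tested against the shares of all genes called with LPS, given above for each line. Of 12 SIN3 complex genes, LPS raised 1 in each line (SIN3A) and lowered 2, 2 and 3 in shNT, shNR4A2 and shNR4A3 cells, ARID4A (-0.65, -0.87 and -0.94) and SAP30L (-0.57, -0.68 and -0.66) in each. The call of SIN3A (0.34, 0.43 and 0.43) was lost without LPS replicate 2 in shNT, any library but LPS replicate 3 in shNR4A2 and control replicate 1 or 3 in shNR4A3 cells (adjusted p up to 0.0514, 0.161 and 0.0697). Of 11 NuRD genes, LPS lowered GATAD2B in each line (-0.55, -0.52 and -0.62), though in the knockdown lines not without replicate 2 or 3 of the controls or 1 or 3 with LPS (adjusted p up to 0.1298 and 0.118). It raised CHD4 in shNR4A3 cells (0.39), but not without LPS replicate 3 (adjusted p 0.0552). Of 7 NCoR and SMRT complex genes, LPS lowered 1 in shNT cells, CORO2A (-0.47), which was lost without any 1 of the 6 libraries (adjusted p up to 0.120). TBL1X of the same complexes was higher in shNR4A2 than in shNT cells without LPS (0.62) and with LPS (0.51), the latter not without any 1 library of shNT or replicate 1 of shNR4A2 (adjusted p up to 0.0952).

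Of 8 other deacetylases, LPS lowered 3, 2 and 3 and raised 0, 0 and 1 in shNT, shNR4A2 and shNR4A3 cells. These counts too were not tested against the shares of all genes called with LPS, given above for each line. HDAC7, a class IIa enzyme, was lower in each line (-0.51, -0.66 and -0.70). Its call was lost without control replicate 2 or LPS replicate 1 or 3 in shNT (adjusted p up to 0.0843) and in shNR4A2 cells (adjusted p up to 0.0865). HDAC5, of the same class, was higher than in shNT in shNR4A2 cells without and with LPS (0.55 and 0.54) and in shNR4A3 cells without LPS (0.37). These calls were lost without shNT replicate 3, without any 1 shNT replicate, and without replicate 1 or 3 of either line (adjusted p up to 0.0607, 0.0766 and 0.133). Of 10 genes of lysine 4 methylation on histone H3, LPS lowered 1, 1 and 2, the methyltransferase SETD1B in each line (-0.80, -0.88 and -0.73). Of 3 other demethylases of that residue (KDM5A, KDM5B and KDM5C), none was called with LPS by edgeR. KDM5B was lower in shNR4A3 than in shNT control cells (-0.45, adjusted p 0.0348), but not without replicate 2 or 3 of shNT or 1 or 3 of shNR4A3 (adjusted p up to 0.155).

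Markers of myeloid maturation also differed between the lines. Of 7 such genes, 4 were higher in shNR4A2 and 5 in shNR4A3 than in shNT control cells, and 3 in each with LPS. The shares of all genes called in these comparisons are given above, and the counts were not tested against them. LYZ, the lysozyme of mature phagocytes, was higher by 1.68 and 1.76 in shNR4A2 and by 2.25 and 2.29 in shNR4A3 cells, without and with LPS, and CSF1R, the receptor of macrophage colony-stimulating factor, by 0.77, 0.87, 1.02 and 1.10. Of these calls 1 was lost with a library left out, that of CSF1R in shNR4A2 cells with LPS without shNT replicate 2 (adjusted p 0.0548). The 7 monocytic markers summed to 213 to 252 RPKM in shNT control libraries, 359 to 418 RPKM in shNR4A2 and 419 to 570 RPKM in shNR4A3. With LPS they summed to 267 to 334, 423 to 562 and 504 to 692 RPKM. Much of that difference lay in LYZ, with 48.8 ± 2.11, 156 ± 31.2 and 233 ± 52.0 RPKM (SD, n = 3) in the control cells of the 3 lines. SPI1 was also called higher by edgeR in shNR4A3 than in shNT cells, without LPS (0.37, adjusted p 0.0411) and with LPS (0.55, adjusted p 0.0297). With LPS its means were 221 RPKM in shNT and 323 RPKM in shNR4A3 cells. In shNR4A2 cells SPI1 was not called (0.20 and 0.36). CD33 (0.11, 0.06, -0.04 and -0.12) and MPO (-0.29, -0.10, 0.12 and 0.31) were not called in shNR4A2 without and with LPS and shNR4A3 without and with LPS, and FCGR1A of the maturation list was not either (0.22, 0.06, -0.01 and -0.19). The part of this difference in the values of RCOR3, KDM1A and HDAC2 was not tested.

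Over the 18 libraries, the genes whose log2 CPM was most like that of a CoREST gene were found among 16935 genes by Pearson r, as a description, since the libraries share lines, stimulus and replicate numbers. RCOR2 was most like RIN1 (0.96), GLT8D1 (0.95) and PCGF6 (0.95), and RCOR3 most like ZHX3 (0.93), CHSY1 (0.92) and TNFRSF10A (0.91). RCOR1 was most like DENND4C, TNKS2 and ACAP2, at 0.91 each. KDM1A was most like STRBP (0.93), HDAC1 most like CYB5R2 (0.97), HDAC2 most like CEP57 (0.95), HMG20B most like MFSD10 (0.92), PHF21A most like TMEM97 (0.92) and ZMYM2 most like TNRC6B (0.94). Among the CoREST genes themselves, the highest r was that of RCOR1 with RCOR3 (0.75), and the lowest that of HDAC1 with PHF21A (-0.76).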

How the data were processed

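The files deposited by the authors hold the raw count of reads for every Ensembl gene in each of 18 libraries of THP-1 cells. Trimmomatic 0.36, STAR 2.5.2b and featureCounts of Subread 1.5.2 on GRCh38 are named in the submitters' processing notes, and the strand setting is not given in the sources used here. Counts per library summed to 16171161 to 23929138 (median 19639071), and 0 library pairs held identical counts. The study states 3 independent experiments. Symbols came from GENCODE 29 for 56898 of 57500 genes.

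Groups were compared with edgeR 4.0.16 in R 4.3.3 (filterByExpr, TMM, quasi-likelihood F test, Benjamini-Hochberg over all genes tested, call at an adjusted p under 0.05), each comparison on its own 6 libraries and each interaction on 12. Standard errors were the log2 fold change over the root of F. Alternatives were DESeq2 1.42.0, RLE normalization, no filter on low counts, a replicate block, all 18 libraries in 1 fit, each library left out in turn, and TPM in place of RPKM, the last chosen after seeing the data. The fits were tested on simulated data.

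Replicate numbers were taken to pair libraries where same-numbered deviations from the group means correlated above 0.1 in each of the 3 replicates. The labels do not state that equal numbers mark a shared experiment, so the pairing rests on these same counts. This held for 7 of the 11 comparisons, with a lowest correlation of 0.135, and not for LPS in shNT cells (0.00751), shNR4A3 against shNT without LPS (0.0767) or the interactions.

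The CoREST genes and the lists (associated genes, recruiters, RELA with its kinases, NF-kappaB targets, NuRD, SIN3, NCoR, other deacetylases, lysine 4 methylation and demethylation, REST targets, maturation, monocytic and other cell markers) were chosen with earlier results of these data known. Every CoREST gene is named, at most 3 called genes of each list and comparison by lowest adjusted p, and the 3 genes most like each CoREST gene. Some genes of the lists are not reported here. No table of proteins was used here.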

Additional observations from a re-analysis of the deposited data

How the results depend on the processing

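Of 99 log2 fold changes of CoREST genes, DESeq2 and RLE normalization changed 0 calls, all 18 libraries in 1 fit added 2, no filter on low counts added 1 and the replicate block added 13, while leaving out 1 library at a time added 5 calls in all and lost 3. No called value changed sign. The cause of these changes was not tested. With the replicate block, the genes called went to 4751 for LPS in shNR4A2 cells (all 18 libraries 4601), 3733 and 4385 for shNR4A2 against shNT without and with LPS, 2267 and 3401 for shNR4A3, 1800 and 3666 for the direct comparisons, and 8 and 22 for the interactions, against 3050, 1019, 1085, 1108, 1005, 480, 362, 0 and 0. Without a filter they were 1611 and 1843 for shNR4A2 against shNT, 1839 for shNR4A3 with LPS, 838 and 1102 for the direct comparisons and 29 and 138 for the interactions. All 18 libraries in 1 fit gave 1691 for shNR4A2 with LPS and 1032 for the direct comparison with LPS. DESeq2 gave 700 for the latter and 2 and 10 for the interactions.

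CoREST genes called under the block were 2 for LPS in shNR4A2 (also 2 with all 18 libraries) and 2 in shNR4A3 cells, 3 and 2 for shNR4A2 against shNT, 1 and 2 for shNR4A3 (1 with LPS and no filter) and 1 in each direct comparison (1 with LPS and all 18 libraries). In the comparisons whose numbers were not taken to pair, the block called RCOR3 for LPS in shNT cells (-0.29, adjusted p 0.0375) and for shNR4A3 without LPS (-0.31, adjusted p 0.0182). The block changed no call of a CoREST gene beyond those given. With a library left out, genes called ran from 3033 to 3461, 2113 to 3375 and 3136 to 4863 for LPS, 517 to 1128 and 342 to 1477 for shNR4A2 against shNT, 649 to 975 and 383 to 1693 for shNR4A3, 249 to 470 and 94 to 217 for the direct comparisons, and 0 to 8 and 0 to 44 for the interactions. CoREST genes called ran from 1 to 3 for LPS in shNT and shNR4A3 cells, and from 0 to 1 for shNR4A3 with LPS and the direct comparison without LPS. TPM shifted the median of all genes with LPS by -0.22 to -0.27. It moved 19 of 27 LPS ratios of CoREST genes by more than 1 SD of their within-number ratios and changed the sign of 11, and it moved 9 of 54 ratios between lines and changed the sign of 8. Of 152 calls in the other lists, 93 held with every library left out. RCOR2 rested on the fewest reads of the CoREST genes, 13 to 111 per library.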
